A study of Mus musculus with 3 samples.

Results

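This account follows 41 genes of the lysosome through mouse embryonic stem cells that had received Lef1, a transcription factor of the Wnt pathway. The members are a list, by name, of lysosomal enzymes, membrane proteins and proton pump subunits, and were found by Entrez gene number among the 17997 genes listed in at least 1 of 3 libraries. All 41 were listed in every library. They fall into 6 role groups: 8 proteases, 13 glycosidases and sulfatases, 7 lipid enzymes and carriers, 7 membrane proteins, 4 genes of the proton pump, and a last group of 2, the regulator gene Tfeb and the precursor gene Grn.

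Total RNA was sequenced from 46C cells, a mouse embryonic stem cell line of strain 129 with a reporter at the Sox1 locus, grown with serum and leukemia inhibitory factor on gelatin. The control library, called empty vector P2 (EV P2 in the text), came from cells given an empty vector (PB) and collected at passage 2. Lef1 P2 and Lef1 P5 came from cells given lef1 (PB-Lef1) and collected at passages 2 and 5. Each group has n = 1 library, so no test between groups was made, no p-value is given, and the difference between cultures of 1 group is unknown. The sources used here do not say whether the cells were 1 clone or a pool. A passage 5 control was not analysed here, so passage and Lef1 cannot be told apart where Lef1 P5 is set against EV P2.

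Lysosomes are acidic compartments in which proteins, sugar chains, lipids and nucleic acids are taken apart. Soluble acid hydrolases do this work, a proton pump (the V-ATPase) keeps the lumen acidic, and heavily glycosylated membrane proteins line the inner face. Many of the genes carry in their promoters a short palindrome, the CLEAR element, through which the basic helix-loop-helix factor TFEB and its relatives raise their transcription. Visceral endoderm, an extraembryonic tissue that takes up much material from outside the cell, is known for abundant lysosomes.

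The libraries held 9225401, 9170554 and 9380813 expected counts, in the order EV P2, Lef1 P2 and Lef1 P5. Levels are in FPKM (fragments per kilobase of transcript, adjusted for library size), and a 1 kb transcript with 3 reads would stand at 0.325, 0.327 and 0.320 FPKM. Lef1 itself was at 1.49, 135 and 214 FPKM, in the order of the labels. All 7 stem cell markers were at 1 FPKM or more in every library, with summed levels of 2176, 1627 and 2090 FPKM. Of 10 extraembryonic endoderm markers 6 reached 1 FPKM in EV P2 and all 10 did in both Lef1 libraries, with summed levels of 137, 1321 and 373 FPKM and none at 0. The 8 fibroblast markers summed to 18.5, 12.8 and 8.20 FPKM, with 3, 4 and 3 of them at 0, Lum and Postn in every library. Most of each sum was Thy1, at 15.65, 9.54 and 7.21 FPKM, while Pdgfrb was at 1.29, 2.36 and 0.50 FPKM. Of the 8 macrophage markers, read because macrophages are rich in lysosomes, 5, 3 and 4 were at 0, including Ptprc and Adgre1 in every library, and 1 reached 1 FPKM. That gene was Cd68, itself a lysosomal membrane protein gene, at 32.1, 34.6 and 28.7 FPKM.

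Promoter sequence is shown first because the CLEAR element is the textbook route to joint control of these genes. RefSeq promoter windows of the GRCm38.p6 build, from 250 bases before to 50 bases after the start site, were matched by gene number for 35 of the 41 genes; Ctsb, Ctsh, Galns, Asah1, Npc1 and Atp6v1h are the other members. The deposited files name another build, and these windows serve for sequence alone. The core palindrome CACGTG was searched, which reads the same on both strands, and the longer palindrome TCACGTGA, which contains it. CACGTG stood in the window of 12 of the 35 genes (34.3%), against 8.09% of all 27025 genes with a window and 11.99% of the 10284 that reached 1 FPKM in any library. TCACGTGA stood in 7 of the 35 (20%), against 1.12% and 2.24%. These are matches of letters and not sites of binding. The 250 bases before the start site are given for 4 genes of the membrane group and the glycosidases, with CACGTG or TCACGTGA in capitals. Lamp1 has 4 matches, Mcoln1 has 2, and Hexa and Cd63 have 0. At passage 2 Hexa and Cd63 had the highest log2 ratio of their groups, with a pseudocount of 1 FPKM. As a plain ratio Naglu, whose window holds CACGTG, lay above Hexa, at 4.17-fold against 3.595-fold.
Lamp1, GRCm38.p6 chr8:13158911-13159160, plus strand: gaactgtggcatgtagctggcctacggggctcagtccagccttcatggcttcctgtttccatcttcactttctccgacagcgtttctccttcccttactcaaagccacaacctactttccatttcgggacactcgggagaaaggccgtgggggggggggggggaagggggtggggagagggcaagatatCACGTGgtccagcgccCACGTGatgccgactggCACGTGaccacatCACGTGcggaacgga
Mcoln1, GRCm38.p6 chr8:3500269-3500518, plus strand: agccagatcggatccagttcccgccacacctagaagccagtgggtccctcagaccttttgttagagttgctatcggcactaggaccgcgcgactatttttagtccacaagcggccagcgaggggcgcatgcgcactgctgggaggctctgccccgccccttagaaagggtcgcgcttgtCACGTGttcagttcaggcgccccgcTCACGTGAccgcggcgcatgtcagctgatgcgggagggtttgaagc
Hexa, GRCm38.p6 chr9:59539290-59539539, plus strand: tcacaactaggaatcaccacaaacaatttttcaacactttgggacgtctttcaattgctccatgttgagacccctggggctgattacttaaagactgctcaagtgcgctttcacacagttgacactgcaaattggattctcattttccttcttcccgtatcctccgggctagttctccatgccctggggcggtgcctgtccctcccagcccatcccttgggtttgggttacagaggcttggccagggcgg
Cd63, GRCm38.p6 chr10:128909095-128909344, plus strand: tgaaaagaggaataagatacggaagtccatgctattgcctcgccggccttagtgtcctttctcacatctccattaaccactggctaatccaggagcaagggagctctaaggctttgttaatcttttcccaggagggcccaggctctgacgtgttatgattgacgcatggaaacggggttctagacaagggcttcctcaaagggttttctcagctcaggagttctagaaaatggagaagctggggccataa

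Shorter windows around the match are given for the other 10 genes with one, in capitals again, so that the flanks of the palindrome can be compared. Where a gene has several matches, 1 is shown.
Ctsa, GRCm38.p6 chr2:164833747-164833780, plus strand: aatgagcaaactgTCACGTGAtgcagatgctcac
Ctsd, GRCm38.p6 chr7:142387906-142387939, minus strand: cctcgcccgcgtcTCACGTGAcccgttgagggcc
Cln3, GRCm38.p6 chr7:126583338-126583371, minus strand: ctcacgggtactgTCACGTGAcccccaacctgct
Gla, GRCm38.p6 chrX:134601180-134601213, minus strand: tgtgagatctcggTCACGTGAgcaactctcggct
Atp6v0d1, GRCm38.p6 chr8:105566048-105566081, minus strand: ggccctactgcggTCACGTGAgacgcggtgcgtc
Atp6v1a, GRCm38.p6 chr16:44139371-44139404, minus strand: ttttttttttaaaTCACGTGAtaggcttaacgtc
Ctsl, GRCm38.p6 chr13:64370737-64370770, minus strand: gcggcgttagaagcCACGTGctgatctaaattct
Naglu, GRCm38.p6 chr11:101070007-101070040, plus strand: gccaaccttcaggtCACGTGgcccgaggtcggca
Gaa, GRCm38.p6 chr11:119267809-119267842, plus strand: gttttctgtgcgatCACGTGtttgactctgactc
Glb1, GRCm38.p6 chr9:114401016-114401049, plus strand: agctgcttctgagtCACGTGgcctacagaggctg

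At passage 2, 9 of the 28 genes of enzymes and lipid carriers and 2 of the 7 membrane protein genes passed the 2-fold rule for a higher call in the Lef1 library, and 19 and 5 did not. Of the 4 proton pump genes, Tfeb and Grn, 0 passed it in either direction, and so few genes leave little room for a call. The summed level of the 41 genes was 1356 FPKM in EV P2, 2349 FPKM in Lef1 P2 and 1507 FPKM in Lef1 P5, or 0.273%, 0.480% and 0.298% of all FPKM. A gene counted as called, higher or lower, when log2((x + 1)/(y + 1)) of the FPKM values was at least 1 in size, which is 2-fold, with at least 3 FPKM and 20 expected reads in the higher library. In Lef1 P2 against EV P2, 11 of the 41 members were called higher and 0 lower, against 6.49% higher and 1.82% lower among the 10651 genes that reach this level. At a threshold of 1.5-fold 26 members were higher and 0 lower, against 17.5% and 8.03% of all genes. The members' median log2 ratio was 0.72, which lies 0.61 above the median of all 12894 genes at 1 FPKM or more in any library, and 37 of 41 lay above that median. Of the 41, 40 reached the level needed for a call, all but Idua, and of these 2 libraries, Galns and Naglu exceeded 3 FPKM in Lef1 P2 alone. In RNA of a whole culture, fewer cells of a type and less RNA per cell cannot be told apart. The summed level of the endoderm markers moved with that of the lysosome genes, highest in Lef1 P2 and lowest in EV P2, and its part in the result was not tested.

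The scaling between libraries bears on these counts. Over all genes 691 were called higher and 194 lower as deposited (78.1% higher), against 505 and 306 (62.3%) with median-of-ratios scaling, which shifted the median of all genes by -0.14. Under that scaling 8 members were called higher and 0 lower, Smpd1, Npc1 and Lamp2 being no longer called. The 26 members higher at 1.5-fold are a count as deposited and depend on the scaling too. Ctsd, Tpp1, Psap, Ppt1, Grn and Cln3 fell under that threshold with median-of-ratios scaling. As deposited Psap, Ppt1 and Grn each had a log2 ratio of 0.65, and Cln3 one of 0.72.

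**Figure D1:**
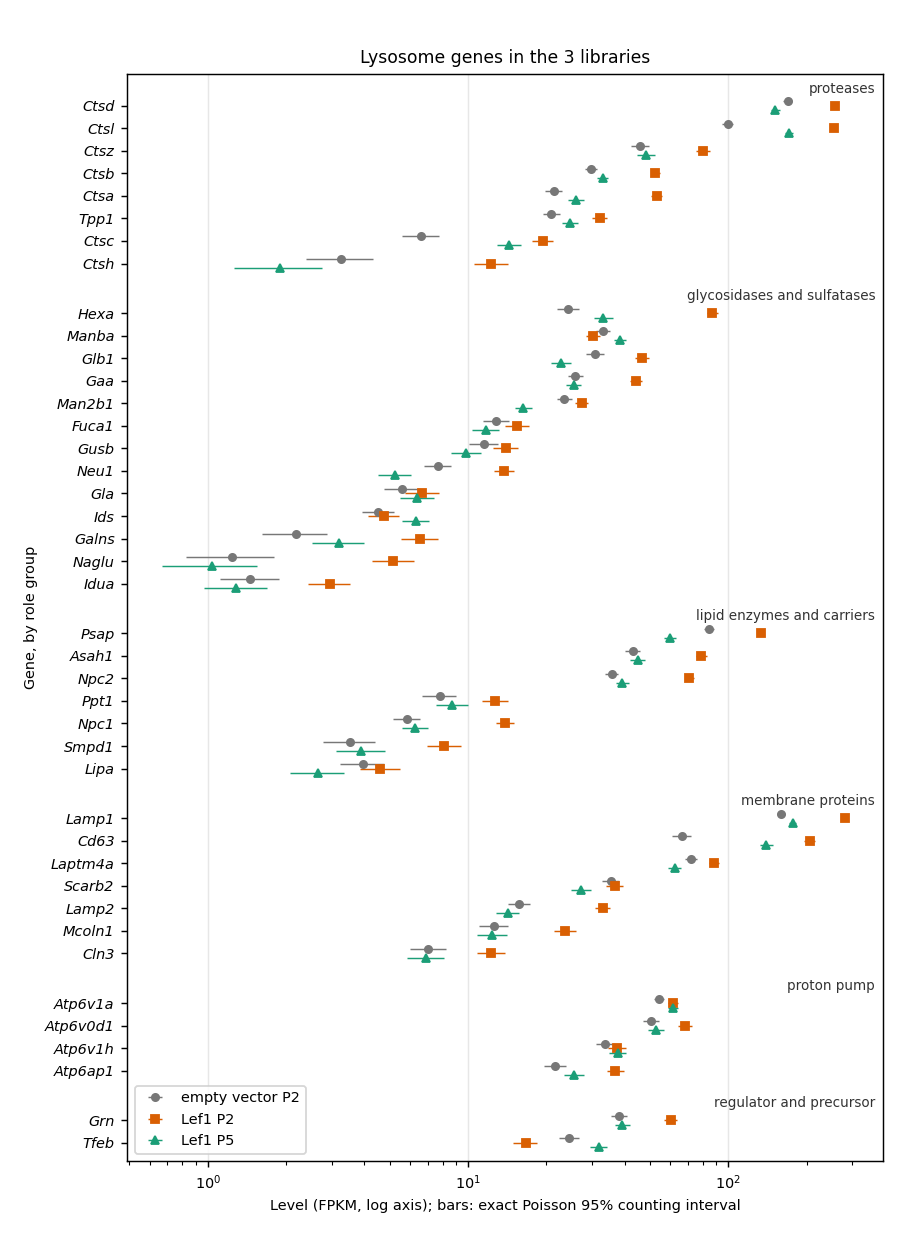
Level of each of the 41 lysosome genes in FPKM on a log axis, in EV P2 (circles), Lef1 P2 (squares) and Lef1 P5 (triangles), ordered by role group and mean level. Bars are exact Poisson 95% counting intervals of 1 library each. The Lef1 P2 squares lie to the right for most enzymes and membrane proteins, while the symbols of Atp6v1a and Atp6v1h nearly coincide and Tfeb is lowest in Lef1 P2.

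Of the 8 proteases 4, Ctsa, Ctsc, Ctsh and Ctsl, were called higher in Lef1 P2. All 8 passed the 1.5-fold threshold as deposited, but Ctsd and Tpp1 did not with median-of-ratios scaling, where both had a log2 ratio of 0.44, nor with TMM scaling, and Tpp1 did not with quantile scaling (0.56). Ctsl (Entrez gene 13039), a cysteine endopeptidase gene and with Ctsd one of the most abundant of the set, was at 99.5 FPKM in EV P2, 254 FPKM in Lef1 P2 and 172 FPKM in Lef1 P5. It was 2.55-fold higher in Lef1 P2 (95% counting interval 2.41 to 2.70) and 1.72-fold higher in Lef1 P5 (1.63 to 1.83). The Lef1 P5 level lay between the other two. Ctsc (Entrez gene 13032), the gene of dipeptidyl peptidase I, which activates serine proteases of granules, was at 6.59, 19.4 and 14.4 FPKM in the same order. It was called higher in both Lef1 libraries, 2.94-fold (2.43 to 3.57) and 2.19-fold (1.79 to 2.67).

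Ctsh (Entrez gene 13036), an aminopeptidase gene, was at 3.24 FPKM (2.38 to 4.31), 12.3 FPKM (10.5 to 14.2) and 1.90 FPKM (1.26 to 2.75). Its level in Lef1 P5 was the lowest of the 3, 6.45-fold lower than in Lef1 P2 (4.31 to 9.99), and its log2 ratio of -2.19 was the lowest of all members in that comparison. It rests on 47, 176 and 28 expected reads. Ctsa (Entrez gene 19025), a carboxypeptidase that also protects beta-galactosidase and neuraminidase from breakdown, was at 21.4, 53.2 and 25.97 FPKM. Its rise was 2.49-fold (2.27 to 2.73), and Lef1 P5 lay close to EV P2.

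The other 4 proteases were not called. The aspartic protease gene Ctsd was at 169, 256 and 152 FPKM, the highest mean level of the proteases and the second highest of all members after Lamp1. Ctsb, a cysteine protease gene, was at 29.8, 52.6 and 32.9 FPKM, and the carboxypeptidase gene Ctsz at 45.9, 79.9 and 48.5 FPKM. Tpp1, which removes tripeptides from protein ends, was at 20.9, 32.1 and 24.7 FPKM and had the lowest log2 ratio of the group at passage 2, 0.59. For all 8 proteases Lef1 P2 was the highest of the 3 libraries.

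The 13 glycosidase and sulfatase genes spanned the widest range of log2 ratios of the 6 role groups at passage 2, from -0.12 to 1.80, and 3 of them were called higher. Hexa (Entrez gene 15211), the alpha subunit of the beta-hexosaminidase that degrades GM2 ganglioside, was at 24.2 FPKM (21.9 to 26.7), 87.0 FPKM (82.6 to 91.7) and 33.1 FPKM (30.4 to 36.0). It rose 3.595-fold in Lef1 P2 (3.22 to 4.02), with the highest log2 ratio of all 41 genes, 1.80. Naglu (Entrez gene 27419), a heparan sulfate enzyme gene, was at 1.24, 5.17 and 1.04 FPKM, which is 4.17-fold higher in Lef1 P2 (2.74 to 6.55) on 28 and 116 expected reads. Galns, a keratan sulfate sulfatase gene, was at 2.18, 6.52 and 3.19 FPKM, and was 2.99-fold higher (2.16 to 4.20).

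The remaining 10 genes of this group were not called at passage 2. Gaa, which breaks down glycogen, was at 25.9, 44.3 and 25.6 FPKM, and the sialidase gene Neu1 at 7.65, 13.8 and 5.24 FPKM. The beta-galactosidase gene Glb1 was at 30.9, 46.6 and 22.9 FPKM, and is the member whose expected counts were not whole, so that its level also depends on how shared reads were divided. Idua, which acts on dermatan and heparan sulfate, was at 1.46, 2.94 and 1.29 FPKM and stayed under 3 FPKM in every library. These 4 genes lay at 1.51-fold to 2.01-fold in Lef1 P2 as plain ratios.

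In the other 6 of the group Lef1 P2 and EV P2 lay close together. The beta-mannosidase gene Manba was at 33.0, 30.2 and 38.4 FPKM, and had the lowest log2 ratio of the group, -0.12. The iduronate sulfatase gene Ids was at 4.52, 4.75 and 6.30 FPKM and the alpha-galactosidase gene Gla at 5.60, 6.67 and 6.40 FPKM. The counting interval of the passage 2 ratio held 1 for both, at 0.864 to 1.28 for Ids and 0.956 to 1.49 for Gla. The alpha-mannosidase gene Man2b1 was at 23.5, 27.3 and 16.3 FPKM, the beta-glucuronidase gene Gusb at 11.5, 13.97 and 9.84 FPKM and the fucosidase gene Fuca1 at 12.8, 15.4 and 11.7 FPKM. In these last 3 genes Lef1 P2 was highest and Lef1 P5 lowest.

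Of the 7 genes for lipid breakdown and transport, Npc1 and Smpd1 were called higher in Lef1 P2. Npc1 (Entrez gene 18145), a membrane protein that passes cholesterol out of the lysosome, was at 5.82, 13.9 and 6.25 FPKM, a rise of 2.39-fold (2.07 to 2.76). Its soluble partner gene Npc2 was at 35.7, 71.0 and 39.2 FPKM, and lay just under the threshold with a log2 ratio of 0.97. The acid sphingomyelinase gene Smpd1 (Entrez gene 20597) was at 3.51, 8.10 and 3.90 FPKM and lay just above it, at 1.01. In Lef1 P5 these 3 genes were at 1.07-fold, 1.10-fold and 1.11-fold the EV P2 level, in the order Npc1, Npc2 and Smpd1.

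Psap (Entrez gene 19156) encodes the precursor of the saposins, the activators of sphingolipid enzymes, and had the highest mean level of this group. It was at 84.6 FPKM (81.0 to 88.4), 133 FPKM (129 to 138) and 59.9 FPKM (56.9 to 63.1), so that its 3 counting intervals did not overlap and Lef1 P5 lay lowest. The acid ceramidase gene Asah1 was at 43.0, 78.8 and 44.9 FPKM and the thioesterase gene Ppt1, which removes palmitate from proteins, at 7.78, 12.7 and 8.69 FPKM. The acid lipase gene Lipa was at 3.95, 4.61 and 2.65 FPKM. Its ratio at passage 2 had a counting interval that held 1 (0.894 to 1.53), and its log2 ratio of 0.18 was the lowest of the group.

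**Figure D2:**
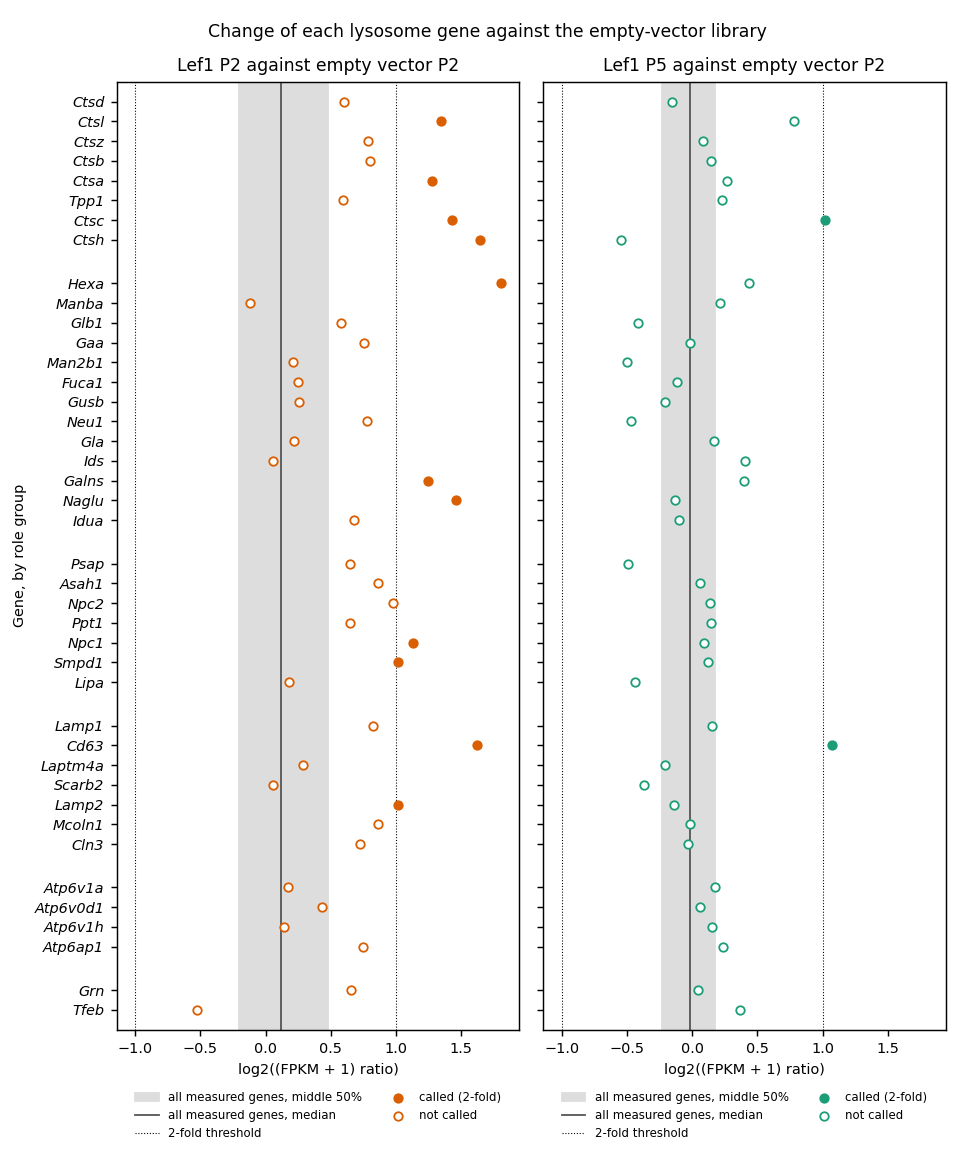
The log2 ratio of each member, on the log2(FPKM + 1) scale, for Lef1 P2 (left) and Lef1 P5 (right) against the same empty-vector library. Filled points were called at 2-fold, dotted lines mark that threshold, and the grey band and line show the middle 50% and the median of the 12894 measured genes. On the left 11 points are filled, and on the right the 2 filled points are Ctsc and Cd63.

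Cd63 and Lamp2 were called higher among the 7 membrane protein genes. Cd63 (Entrez gene 12512), a tetraspanin of late endosomes and lysosomes that also leaves the cell on vesicles, was at 66.3 FPKM (60.7 to 72.2), 206 FPKM (196 to 216) and 140.1 FPKM (132 to 149). It was higher in both Lef1 libraries, 3.10-fold (2.81 to 3.43) and 2.11-fold (1.91 to 2.35), and the 3 intervals did not overlap. Lamp2 (Entrez gene 16784), one of the main glycoproteins of the lysosomal membrane, was at 15.8, 32.9 and 14.2 FPKM. It has several isoforms, and the deposited length for it was 2981, 3242 and 3056 bases in the same order, on 426, 961 and 401 expected reads.

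Lamp1, its more abundant relative and the member with the highest mean level of all 41, was at 159, 282 and 177 FPKM and was not called, with a ratio of 1.77 (1.70 to 1.85). The calcium channel gene Mcoln1 was at 12.6, 23.6 and 12.4 FPKM, and Cln3, a membrane protein gene named for neuronal ceroid lipofuscinosis, at 7.05, 12.3 and 6.88 FPKM. Laptm4a was at 72.1, 88.2 and 62.4 FPKM. Scarb2, whose protein carries glucocerebrosidase to the lysosome, was at 35.4, 36.7 and 27.2 FPKM, with the lowest log2 ratio of the group, 0.05. In all 7 genes Lef1 P2 was the highest library, for Scarb2 as deposited but not with median-of-ratios or TMM scaling, where its log2 ratio was -0.10.

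None of the 4 proton pump genes was called in any comparison, where 1.28% to 6.86% of all genes were called in 1 direction. Shares of that size leave little room for a call among 4 genes, so the lack of calls does not set the group apart. At 1.5-fold Atp6ap1 alone was higher in Lef1 P2 than in EV P2, against 17.5% of all genes. Atp6v1a, the catalytic subunit of the cytosolic part and the highest of the group by its mean over the 3 libraries, was at 54.4, 61.3 and 61.4 FPKM. Atp6v1h, a regulatory subunit of the same part, was at 33.8, 37.4 and 37.6 FPKM and had the lowest log2 ratio of the group at passage 2, 0.14. Atp6v0d1, which links the membrane part to the cytosolic part, was at 50.6, 68.5 and 52.8 FPKM. The accessory subunit gene Atp6ap1 was at 21.6, 36.8 and 25.6 FPKM, the highest ratio of the group at 1.71 (1.51 to 1.93). The 4 genes together stood at 160.4, 204 and 177 FPKM, 1.27-fold higher in Lef1 P2, against 1.92-fold for the proteases, 1.65-fold for the glycosidases and sulfatases, 1.75-fold for the lipid genes and 1.85-fold for the membrane proteins.

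**Figure D3:**
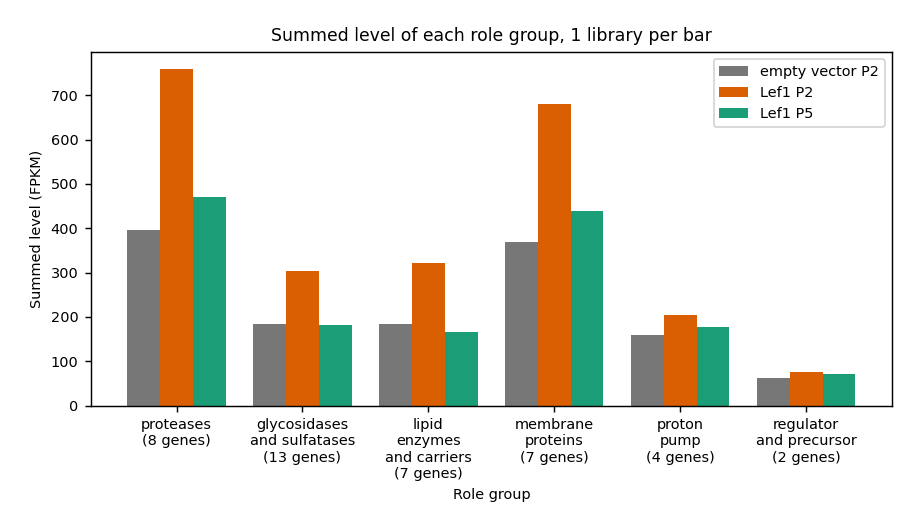
Summed level in FPKM of the members of each role group in each library, with 1 library per bar and no error. The proteases summed to 396, 760 and 472 FPKM and the membrane proteins to 368, 681 and 440 FPKM, while the proton pump genes ran from 160.4 to 204 FPKM.

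Tfeb (Entrez gene 21425), whose protein activates lysosomal genes and is controlled largely by its place in the cell, went the other way from most of the enzymes. Its level was 24.4 FPKM in EV P2 (22.4 to 26.6), 16.7 FPKM in Lef1 P2 (15.0 to 18.5) and 31.8 FPKM in Lef1 P5 (29.5 to 34.3). The intervals did not overlap, and Lef1 P2, where the enzymes were highest, had the lowest level. Its log2 ratios against EV P2 were -0.53 and 0.37, and it was not called in either. Grn, the gene of the progranulin precursor, which is processed in the lysosome, was at 38.0, 60.1 and 39.2 FPKM. At passage 2 the 12 genes with CACGTG had a median log2 ratio of 0.74 (range 0.17 to 1.46), and 3 were called higher. The 23 genes with a window but without it had a median of 0.65 (-0.53 to 1.80), and 5 were called higher. Of all genes 6.49% were called higher. The part of the palindrome in these ratios was not tested.

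In Lef1 P5 against EV P2, 2 of 41 were called higher, Ctsc and Cd63, and 0 lower, against 1.4% higher and 1.28% lower of 10121 genes. At 1.5-fold Ctsl joined them, giving 3 higher and 0 lower, against 4.31% and 5.95%. Both counts rest on these 3 genes. The members' median log2 ratio was 0.08, or 0.10 above that of all genes. By role group it was 0.19 for the proteases, -0.10 for the glycosidases and sulfatases, 0.09 for the lipid genes, -0.03 for the membrane proteins, 0.16 for the proton pump and 0.21 for Tfeb and Grn. In 24 members the ratio was above 0 and in 17 below. Both comparisons use the same empty-vector library, so its error enters both.

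In Lef1 P5 against Lef1 P2, 8 of 41 were called lower and 0 higher, against 6.86% lower and 1.88% higher of 10593 genes. The 8 were Ctsa, Ctsh, Hexa, Naglu, Neu1, Psap, Npc1 and Lamp2. Of these libraries, Ctsh, Naglu and the uncalled Lipa exceeded 3 FPKM in Lef1 P2 alone. At 1.5-fold 23 were lower and 1, Tfeb, higher, against 20% and 7.98% of all genes, as deposited. With median-of-ratios scaling Ctsb, Ctsd, Ctsz, Gaa, Man2b1, Lipa, Lamp1, Cln3 and Grn were no longer lower at 1.5-fold. The median log2 ratio was -0.67, which lies 0.50 under that of all genes. Neu1 fell to 5.24 FPKM (4.52 to 6.05) from 13.8 FPKM (12.6 to 15.1), and Hexa was 2.63-fold lower. With median-of-ratios scaling 4 were called lower (Ctsh, Hexa, Naglu and Neu1) and 1, Tfeb, higher, while over all genes the higher share of calls moved from 21.5% (199 higher, 727 lower) to 45.8% (381 and 451). The endoderm markers were also lower at passage 5, 8 of 10 called, with a summed level 3.54-fold lower, and their part in the result was not tested. This comparison uses the same Lef1 P2 library as that with EV P2, so the error of that library enters both. Ctsa, Ctsh, Hexa, Naglu, Npc1 and Lamp2 were called in both, and the calls are not independent.

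**Figure D4:**
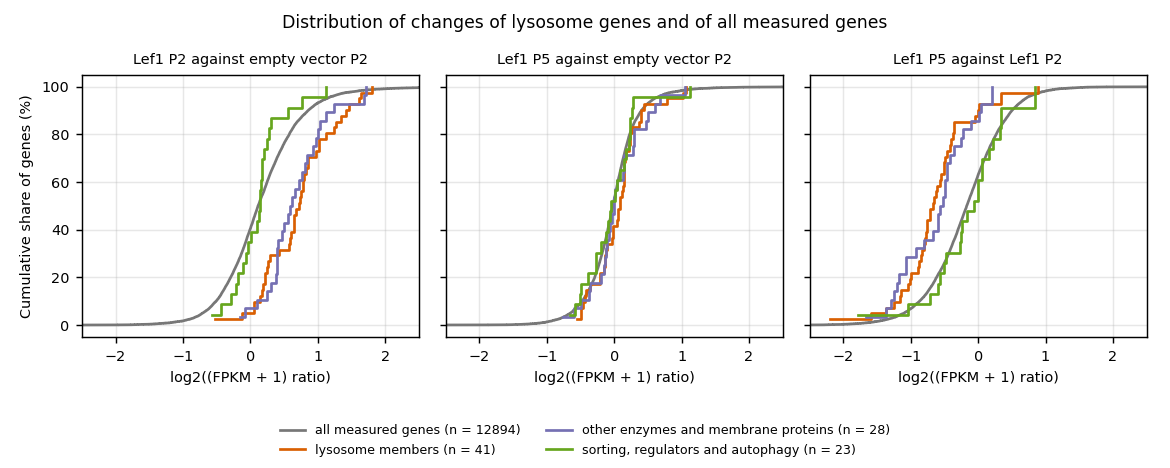
Cumulative share of genes, in percent, at or under each log2 ratio for the 41 members, 28 other lysosomal enzymes and membrane proteins, 23 genes of sorting, regulation and autophagy, and all 12894 measured genes, in the 3 comparisons. In the left panel the curves of the members and of the other enzymes and membrane proteins lie to the right of all genes. Their medians there are 0.72 and 0.60, against 0.11. In the right panel these 2 curves lie to the left of all genes.

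Lysosome genes outside the 41 members were counted in the same way, from a list of 68 of which 67 were listed in any library (not Ctss). In Lef1 P2 against EV P2, 7 of the 68 were called higher and 0 lower, against 6.49% and 1.82% of all genes. Of 33 other enzymes and membrane proteins 6 were higher, among them Lgmn, the asparaginyl protease that trims cathepsins (27.4, 60.6 and 25.04 FPKM), the phosphatase gene Acp5 (2.48, 6.15 and 3.82 FPKM), the fucosidase gene Fuca2 (2.67, 10.9 and 4.17 FPKM), the phospholipase gene Pla2g15 (9.39, 19.9 and 8.98 FPKM) and the sialic acid exporter gene Slc17a5 (3.70, 14.4 and 3.84 FPKM). The median of the 28 genes of this list at 1 FPKM or more was 0.60.

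Among 23 genes of enzyme sorting, TFEB regulation and autophagy, 1 was called higher in Lef1 P2, the autophagy gene Wipi1 (8.56, 19.8 and 5.07 FPKM). Of all genes 6.49% were called higher, a share that leaves room for few calls among 23 genes. The median of 0.14 lay 0.03 above that of all genes. The mannose 6-phosphate receptor genes were not called at passage 2, with M6pr at 62.9, 71.2 and 60.0 FPKM and Igf2r at 30.0, 51.9 and 24.6 FPKM. The TFEB relatives Tfe3 (44.2, 32.5 and 36.6 FPKM) and Mitf (4.33, 3.62 and 4.39 FPKM) were not called either. In Lef1 P5 against EV P2, 2 of the 68 were called higher, against 1.4% of all genes, the nuclease gene Dnase2a (4.24, 8.41 and 9.85 FPKM) and Rragd, a GTPase gene of nutrient sensing at the lysosome (7.63, 9.48 and 17.8 FPKM). In Lef1 P5 against Lef1 P2, 10 of the 68 were called lower and 0 higher, against 6.86% and 1.88% of all genes. They were 8 of the 33 enzymes and membrane proteins, Lgmn, Fuca2, Pla2g15 and Slc17a5 among them, and 2 of the 23 others, Igf2r with a log2 ratio of -1.04 and Wipi1 with -1.78.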

How the data were processed

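Each library has 1 deposited gene table, with an Entrez number, a length, and both an expected count and a value in FPKM for each gene, per the file headers. The submitters' processing notes name Bowtie 0.12.2 and the build mm8. The sources used here do not give the counting program, the use of strand or the handling of reads that match several genes. The authors' expected counts need not be whole; those of 1 member, Glb1, were not. The tables list values down to 0.01 FPKM, and a missing row was taken as 0. Symbols came from a RefSeq table of GRCm38.p6, which matched 17951 of 17997 gene numbers.

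From the deposited FPKM, log2 ratios used a pseudocount of 1 FPKM, which understates changes of weakly expressed genes. Folds in the text are plain FPKM ratios. A call needed a log2 ratio of at least 1 in size, 3 FPKM and 20 expected reads in the higher library. Medians use genes at 1 FPKM or more in any library. Intervals are exact Poisson intervals for levels and exact binomial (Clopper-Pearson) intervals for folds, at 95%. They cover counting error only, and not the spread between cultures. They also treat reads as independent, and since amplified reads are not independent molecules they may be too narrow. With 1 library a group no test was made. Alternatives were other pseudocounts, level minimums, thresholds, scalings (median-of-ratios, TMM from edgeR 4.0.16, quantile), CPM, and leaving out genes without whole counts. The calling rule was tried on simulated counts with Poisson error alone, for well expressed genes with 4-fold changes. That check does not cover changes near 2-fold, weakly expressed genes or the spread between cultures. Python 3.11.15, pandas 2.3.3 and scipy 1.17.1 were used. The members and lists were chosen with earlier results of these data known. Genes described in full were those called in any comparison, and in each role group the gene with the highest mean level and those with the highest and lowest ratio at passage 2. The values of some genes on these lists are not reported here.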

Additional observations from a re-analysis of the deposited data

Results flagged for a closer look

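For 9 members the ratio to EV P2 pointed one way in Lef1 P2 and the other way in Lef1 P5, with counting intervals that left out 1 in both comparisons. Both ratios use the same empty-vector library, and with 1 library a group the difference was not tested. The share of all genes that meet this rule was not counted. The 9 are therefore a list to look at and not a result about lysosome genes as a set. In 7 genes Lef1 P2 was above and Lef1 P5 below the empty-vector level, and the log2 ratio of Lef1 P5 to Lef1 P2 was -0.75 for Ctsd, -2.19 for Ctsh, -0.995 for Glb1, -1.25 for Neu1, -0.71 for Man2b1, -1.14 for Psap and -0.49 for Laptm4a. In the other 2 the order was the reverse, with 0.34 for Manba and 0.89 for Tfeb. None of the 9 changed the sign of either ratio with a pseudocount of 0.1 or 5, with median-of-ratios, TMM or quantile scaling, or with CPM. Only the sign was looked at there, and not whether the intervals still left out 1. The passage 2 intervals of Manba (0.840 to 0.998) and Man2b1 (1.07 to 1.27) lay near 1 as deposited.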

How the results depend on the processing

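No paired analysis was possible because each group has 1 library. In Lef1 P2 against EV P2 the 11 members called higher became 6 with a pseudocount of 5, 26 at 1.5-fold and 0 at 4-fold, and the median relative to all genes moved from 0.61 to 0.76 with quantile scaling. In Lef1 P5 against EV P2 the 2 called higher became 1 with a pseudocount of 5 and 0 at 4-fold. In Lef1 P5 against Lef1 P2 the 8 called lower became 3 with a pseudocount of 5, 23 at 1.5-fold, 1 at 4-fold and 4 with median-of-ratios and with TMM scaling, the 0 called higher became 1 (Tfeb) at 1.5-fold and under the TMM, quantile and median-of-ratios scalings, and the median moved from -0.50 to -0.62 with quantile scaling. The other settings left these counts within 1.5 times. Under them the median relative to all genes ran from 0.52 to 0.71 in Lef1 P2 against EV P2. The lower value came with a pseudocount of 5 and the higher with genes measured at 10 FPKM, which changes the gene set. In Lef1 P5 against EV P2 the median ran from 0.07 with a pseudocount of 5 to 0.11 with median-of-ratios scaling. Whether such moves of a median exceed its counting error was not tested. No called member changed sign in any of the 246 values recomputed for each comparison. Members not called changed sign in 9, 8 and 4 of those values, from 5, 3 and 2 genes (Gla, Ids, Lipa, Scarb2 and Atp6v1h at passage 2). Except where a setting's own construction changes the count, the cause was not tested. Depth limits Naglu, Ctsh, Idua and Galns most, and with 1 library a group the spread between cultures is unknown.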

Other observations

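All 16 V-ATPase genes of the fixed lists were looked at together, and the division into the cytosolic V1 part and the membrane V0 part was made after the values were seen. None of the 16 was called in any comparison, where 1.28% to 6.86% of all genes were called in 1 direction. Shares of that size leave room for few calls among 16 genes. At 1.5-fold 6 of the 16 were higher in Lef1 P2 than in EV P2 and 0 lower, against 17.5% and 8.03% of all genes. Of the 6, 5 were among the 8 genes of the V0 part and its accessory proteins. In Lef1 P2 against EV P2, the 8 genes of the V0 part and its accessory proteins had log2 ratios from 0.33 to 0.93 with a median of 0.64. The 8 genes of the V1 part ran from -0.13 to 0.62, with a median of 0.16, near the 0.11 of all genes. Among the former, Atp6ap2 was at 21.2, 41.4 and 26.4 FPKM in EV P2, Lef1 P2 and Lef1 P5, Atp6v0a1 at 8.94, 17.5 and 8.70 FPKM, and Atp6v0b at 61.1, 97.1 and 62.5 FPKM. Among the latter, Atp6v1f was at 99.4, 90.8 and 93.2 FPKM, Atp6v1e1 at 71.5, 70.8 and 63.1 FPKM, and Atp6v1g1, the highest ratio of that part, at 90.4, 139.7 and 96.0 FPKM. With 1 library a group the difference between the parts was not tested.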
